A study of Homo sapiens with 2 samples.

Results

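The tallest peaks of RUNX1 binding outside the RUNX1 gene itself were examined in cells made from MCF10A. This long-used human breast epithelial cell line does not form tumours, though the study reports that it did after RUNX1 deletion. The peaks were chosen by their pileup, which counts the ChIP tags, each extended to the fragment length, that cover the summit. All peaks with a pileup of at least 35 were taken, leaving out summits inside RUNX1 (chromosome 21, 34787801 to 35049302, GRCh38) and summits between 8.2 and 8.45 Mb of chromosome 21, where ribosomal DNA lies. Of 13591 peaks in the list, 711 reached 35 tags, 10 of them in RUNX1 and 46 in the ribosomal DNA, so that 655 tall peaks remained, or 4.82% of the list. They were compared with the 12880 peaks under 35 tags, 7 of which lay in RUNX1. The ChIPseq comprised 1 library from the RUNX1 immunoprecipitate (anti-RUNX1 antibody, 80338845 kept tags) and 1 library of input DNA (no antibody, 87410774 kept tags). Both came from MCF10A cells in which RUNX1 had been deleted and into which lentiviruses had brought an inducible RUNX1, and both were treated with doxycycline at 1 µg/ml for 24 hours. The study turned to these cells because a first ChIPseq of the endogenous protein had not given strong binding, so the peaks are those of RUNX1 expressed from a vector. There was no library from uninduced cells among the data used here and no replicate, so no test between samples was made, and the intervals given cover counting error only.

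Through its Runt domain RUNX1 contacts DNA, and the partner protein CBFB strengthens this contact without touching DNA itself. The core sequence that RUNX proteins recognise is TGTGGT, or less often TGCGGT. In epithelial and blood cells RUNX proteins are known to act largely at enhancers, which can lie far from the genes they serve, and to bind them together with other transcription factors.

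Few tall peaks lay at the start of a gene, and some but not all of the starts that had one held a RUNX core near the summit. RefSeq windows that run from 250 bases before to 50 bases after a gene's start were searched on both strands for TGTGGT and TGCGGT, which cannot both match at the same position. The windows cover chromosomes other than 8 and 81.9% of the protein-coding genes there. A tall summit fell in 12 windows, 6 of protein-coding and 6 of long non-coding RNA genes, and 7 of the 12 held a core (58.3%, 95% Wilson interval 32.0 to 80.7%). Among windows with a summit under 35 tags, 272 of 428 held a core (63.6%, 58.9 to 68.0%), and among all 35116 windows 6879 did (19.6%). Both sets of bound windows therefore held the core more often than windows in general, and at 12 windows the tall and the shorter set could not be told apart. In the 7 windows with a tall summit and a core, the nearest core lay 0 to 39 bases from the summit, with a median of 13. In the shorter set the median was 26.5 bases over 272 summits, and the range reached 284. One tall summit lay in 2 overlapping windows of LOC124904754 and is counted in both. A match is a description of the letters and does not show that RUNX1 sits on them.

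The windows with the 4 tallest such summits are shown because they hold the contrast between a tall summit on a core and a tall summit without one. Sequences are RefSeq GRCh38.p14, the 250 bases before the gene's start, read 5′ to 3′ on the gene's strand, with RUNX cores on either strand in capitals.
EEF1A1, chr6:73521033-73521282, minus strand: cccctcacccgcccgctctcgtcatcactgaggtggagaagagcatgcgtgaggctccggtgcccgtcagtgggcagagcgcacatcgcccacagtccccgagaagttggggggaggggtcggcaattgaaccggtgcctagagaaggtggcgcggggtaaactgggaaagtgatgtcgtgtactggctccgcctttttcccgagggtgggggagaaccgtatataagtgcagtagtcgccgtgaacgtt
LOC124901147, chr5:178078271-178078520, minus strand: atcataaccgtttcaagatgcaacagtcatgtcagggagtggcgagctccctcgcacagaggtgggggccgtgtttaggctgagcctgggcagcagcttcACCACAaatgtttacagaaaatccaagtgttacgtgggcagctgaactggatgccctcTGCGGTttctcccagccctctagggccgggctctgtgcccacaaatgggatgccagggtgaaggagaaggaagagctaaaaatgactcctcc
DSTYK, chr1:205211703-205211952, minus strand: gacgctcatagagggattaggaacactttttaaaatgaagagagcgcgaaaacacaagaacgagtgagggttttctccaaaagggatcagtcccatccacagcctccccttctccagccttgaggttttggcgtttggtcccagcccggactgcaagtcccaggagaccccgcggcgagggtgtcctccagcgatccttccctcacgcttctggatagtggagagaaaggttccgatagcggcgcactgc
SNAPC3, chr9:15422626-15422875, plus strand: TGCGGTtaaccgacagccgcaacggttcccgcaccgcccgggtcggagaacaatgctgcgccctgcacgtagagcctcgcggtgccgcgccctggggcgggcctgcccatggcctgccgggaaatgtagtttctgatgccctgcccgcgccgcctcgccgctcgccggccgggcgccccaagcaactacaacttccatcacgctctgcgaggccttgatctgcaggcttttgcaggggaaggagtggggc

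The peak at EEF1A1, which encodes a translation elongation factor, had a pileup of 61 tags with its summit 51 bases before the start, and its window held no core. The peak at LOC124901147, a long non-coding RNA gene, had 56 tags with the summit 84 bases before the start. Its nearest core, TGCGGT beginning 92 bases before the start, was 3 bases from the summit. The peak at DSTYK, which encodes a protein kinase, had 46 tags with its summit 2 bases after the start. The core at that summit lay after the start and is not shown. The peak at SNAPC3, a subunit of the complex that starts transcription of small nuclear RNA genes, had 44 tags with its summit 240 bases before the start and 5 bases from the TGCGGT that opens the printed stretch. HYLS1 (42 tags) also had a core, 13 bases from the summit, whereas S100A12, a calcium-binding protein of the S100 family (39 tags), had none in its window.

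The heights of the 655 peaks ran from 35 to 110 tags, with a median of 40 (quartiles 37 and 45). Only 36 reached 60 tags and 102 reached 50, whereas 306 had 35 to 39. At the limit itself 77 peaks had 35 tags and 96 had 34, so the set has no natural gap at its lower edge. A pileup of 35 has an exact 95% Poisson interval of 24.4 to 48.7 tags, which covers 34. The lowest by fold just inside the limit were near ANHX, PLS3 and LOC124902048, with fold enrichments of 2.43, 3.24 and 3.88. Just outside it, at 34 tags, the highest fold was 10.9, which was also the upper quartile, so many peaks tied there. Those in GLIS1 and ADARB2 and 736 bp from SYT6 were among them. The named peaks were picked by fold on each side, so the contrast between them follows from the choice. Over all peaks of 35 tags the median fold was 9.58, and over all of 34 tags it was 9.32.

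The 30 tallest peaks, with 61 to 110 tags, covered genes of varied function. In 15 of the 30 the summit lay inside a protein-coding gene, in 4 it lay less than 5 kb outside one and in 7 it lay over 50 kb away. Coordinates are those of the list (hg38), and the gene table gives gene bodies without exons, so introns and exons were not told apart. The tallest of all, inside SLCO5A1, a gene of the organic anion transporter family, had 110 tags (90.4 to 133), but the input level there was 18.4 times the genome-wide background and the fold enrichment was 2.68. The peak 66.9 kb from IER5, an immediate early response gene, at chr1:181159589-181160066 had 100 tags (81.4 to 122) over 2.16 times background. Intervals of these 2 overlap, so their order is not resolved. The peak 21.7 kb from LHX2, a LIM homeobox transcription factor, at chr9:124054805-124055156 had 82 tags (65.2 to 102) at an input level equal to the background. It lay inside LOC107987037, a long non-coding RNA gene, and a second tall peak, of 40 tags at 2.50 times background, stood 43.4 kb from it.

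**Figure D1:**
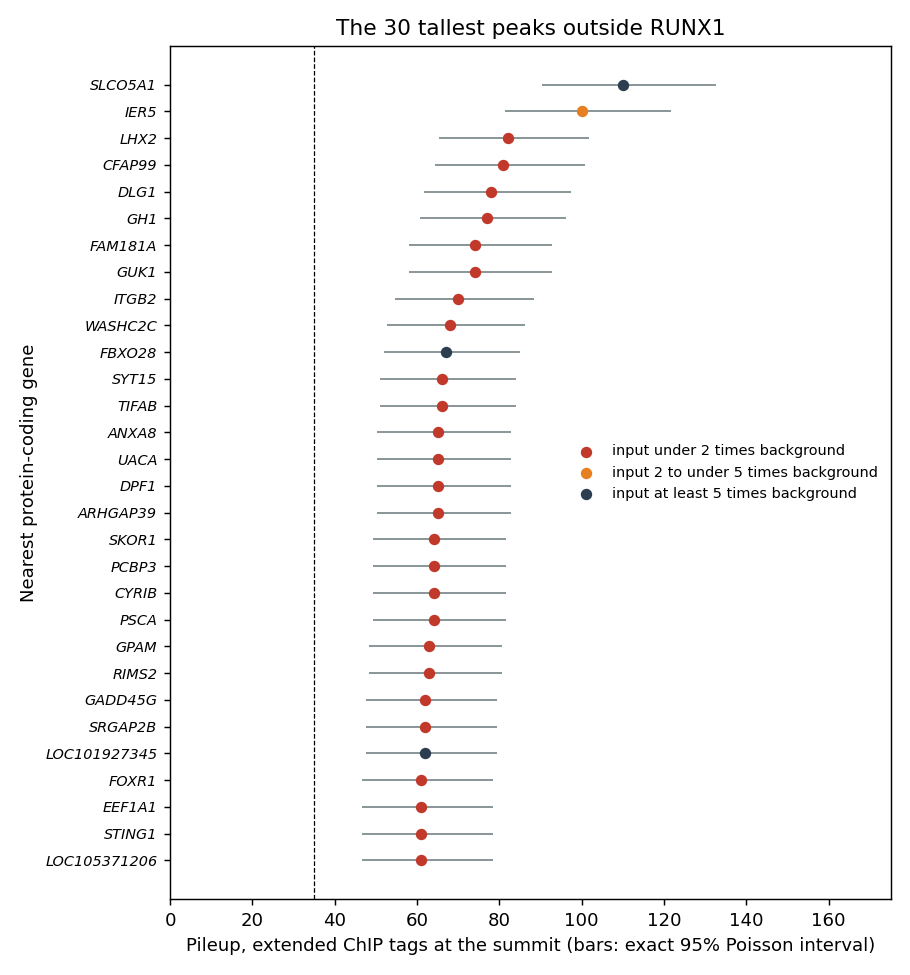
Pileup in tags (x axis) of the 30 tallest peaks outside RUNX1, each named by its nearest protein-coding gene (y axis), with exact 95% Poisson intervals as bars. The points lie between 61 and 110 tags, right of the dashed line at 35. Dark points mark 3 peaks with an input level of at least 5 times the genome-wide background, the orange point 1 peak with 2 to under 5 times.

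DLG1, a scaffold protein of epithelial polarity, held a peak of 78 tags (61.7 to 97.3) and 978 bp at chr3:197132509-197133486. ARHGAP39, a GTPase-activating protein, held one of 65 tags, and CYRIB, which binds active RAC1, one of 64 tags. WASHC2C, a subunit of a complex that builds actin on endosomes, was 10.8 kb from a peak of 68 tags at chr10:45803603-45803975 with a smaller one of 39 tags beside it, 0.5 kb from summit to summit. The intervals of the heights overlap for these peaks, other than the one of 39 tags against that of DLG1.

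ITGB2, the beta chain of leukocyte integrins, was 114 bp from a summit of 70 tags (54.6 to 88.4), which fell in its antisense gene ITGB2-AS1 (chr21:44928742-44929080). TIFAB, an inhibitor of TRAF6 signalling, held a peak of 66 tags (51.0 to 84.0) at chr5:135448791-135449255. STING1, a sensor of cyclic dinucleotides, held one of 61 tags (46.7 to 78.4) at chr5:139482249-139482743. GH1, the pituitary growth hormone gene, held a peak of 77 tags (60.8 to 96.2) at chr17:63916705-63917329, and PSCA, a surface antigen of prostate and other epithelia, one of 64. Whether any of these genes is expressed in the cells was not measured by these libraries.

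Of the remaining 30 tallest, CFAP99 held a peak of 81 tags (64.3 to 101) at chr4:2429954-2430714 and GUK1, guanylate kinase, one of 74 (58.1 to 92.9) at chr1:228141775-228142169. FAM181A lay 33.7 kb from one of 74. DPF1, a subunit of a neural chromatin remodelling complex, held a peak of 65, PCBP3, an RNA-binding protein, one of 64, RIMS2, a protein of synaptic vesicle release, one of 63, and FOXR1, a forkhead factor, one of 61. GPAM, the first enzyme of glycerolipid synthesis, was 104 bp from a summit of 63 tags. UACA was 168 kb from one of 65 and GADD45G, a stress response gene, 143 kb from one of 62. The peak next to SKOR1 (chr15:67840038-67840299) was 64 bp from RNU6-1, a gene of the U6 spliceosomal RNA, and had 64 tags.

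Some of the 30 lay where the genome holds near-identical copies, so their tags may be divided between copies. Among these were WASHC2C, SYT15 (66 tags, 137 kb away) and ANXA8 (65 tags) on chromosome 10 and SRGAP2B (62 tags, 4.1 kb away) on chromosome 1. The last of the 30 was 75.4 kb from LOC105371206 on the same chromosome, with 61 tags. A peak of 62 tags on chromosome 21 (chr21:8987152-8987241) lay 33 bp from MIR3648-2, a microRNA gene, at 9.60 times the background input, and its nearest protein-coding gene was LOC101927345. FBXO28 was 99.3 kb from a peak of 67 tags that lay inside the pseudogene SEPTIN7P13 and had 14.2 times the background input.

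Tall peaks fell apart by their input level, the local background that MACS set against the ChIP tags, recovered here from pileup and fold enrichment. It sat within 1% of the genome-wide background of 2.20 tags in 192 of the tall peaks (29.3%, 26.0 to 32.9%) and in 40.2% of the shorter ones. It was at least 2 times background in 141 (21.5%, 18.6 to 24.8%) against 7.58%, and at least 5 times in 28 (4.27%, 2.97 to 6.11%) against 5 peaks or 0.0388%. A peak over a raised input needs more tags to pass the q limit, so the shares are not independent of how the list was made. When each pileup was divided by its relative input level, 279 of the 655 still reached 35 and 376 did not. The input levels were low in tags, with a median of 2.76 over the tall peaks. In the class of at least 2 times background the lowest was 4.42. Neither the input levels nor the divided heights were given an interval for their counting error. MACS takes the largest of several backgrounds, so this division can only lower a height. Of the 655, 398 had a fold enrichment of at least 10, against 3.82% of all peaks. Both values come from the same contrast as the height that chose the set, and nothing is read from them. In 11 the fold was at least 20. The 46 tall peaks with a fold under 5 all had an input level of at least 2 times background.

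**Figure D2:**
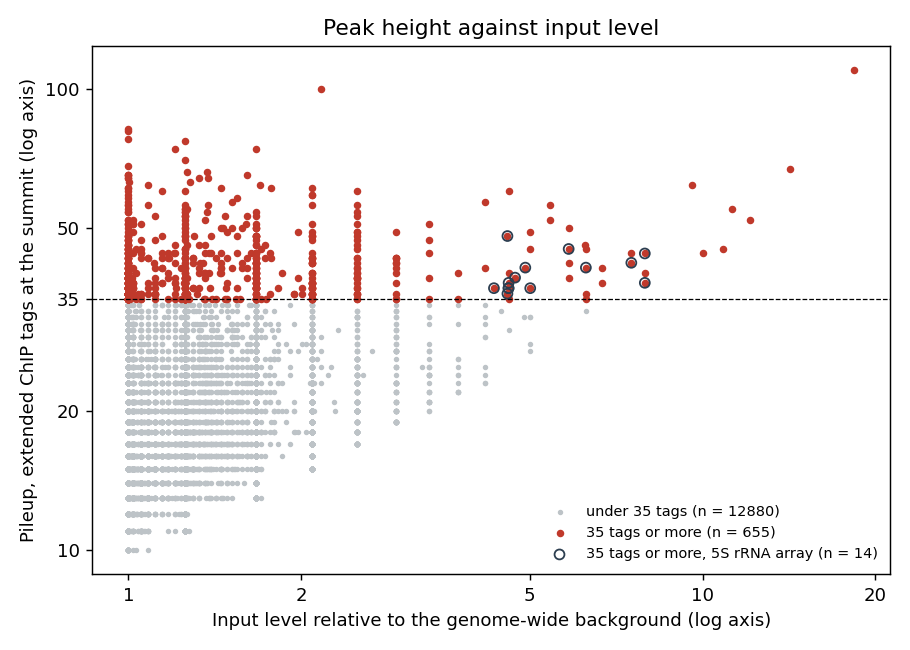
Pileup in tags (y axis, log) against the input level relative to the genome-wide background (x axis, log) for 655 tall peaks (red) and 12880 peaks under 35 tags (grey), with the 14 tall peaks of the 5S ribosomal RNA array ringed. The dashed line is the limit of 35 tags. The cloud is densest at an input level of 1, and the ringed peaks sit between 4.33 and 7.93.

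Tall peaks were mostly wider than the shorter ones, although the tallest of all, inside SLCO5A1, was only 114 bp wide. The median width was 311 bp (quartiles 263 and 390) against 149 bp (105 and 209), a description of the same signal. Of the tall peaks, 63 were over 500 bp wide and 3 over 1000 bp, the widest 2126 bp in LOC124902420 on chromosome 10 with 59 tags. At the other end 29 were 150 bp wide or less, and 28 of these had an input level of at least 2 times background. The narrowest, 74 bp, was that in SEPTIN7P13.

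The tall peaks that stood in repeated small RNA genes formed the tightest group. The 5S ribosomal RNA, a part of the large ribosomal subunit made by RNA polymerase III, is encoded on chromosome 1 by a row of 17 RNA5S genes (228610266 to 228646158) spaced by a median of 2.24 kb. The list had 15 peaks there, 14 of them tall, and 13 of the 14 tall summits lay inside an RNA5S gene, the other 4 bp from RNA5S8. Their pileups were 36 to 48 tags, highest at RNA5S12, and the only lower peak, at RNA5S7, had 33. Input levels were 4.33 to 7.93 times background and fold enrichments 2.11 to 4.43. Divided by the relative input level the heights became 4.79 to 10.5 tags, and 0 of 14 reached 35. RNA5S5 and RNA5S9 had no peak. As these copies are nearly identical, a tag can come from any of them, and the 14 peaks are not 14 separate observations.

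**Figure D3:**
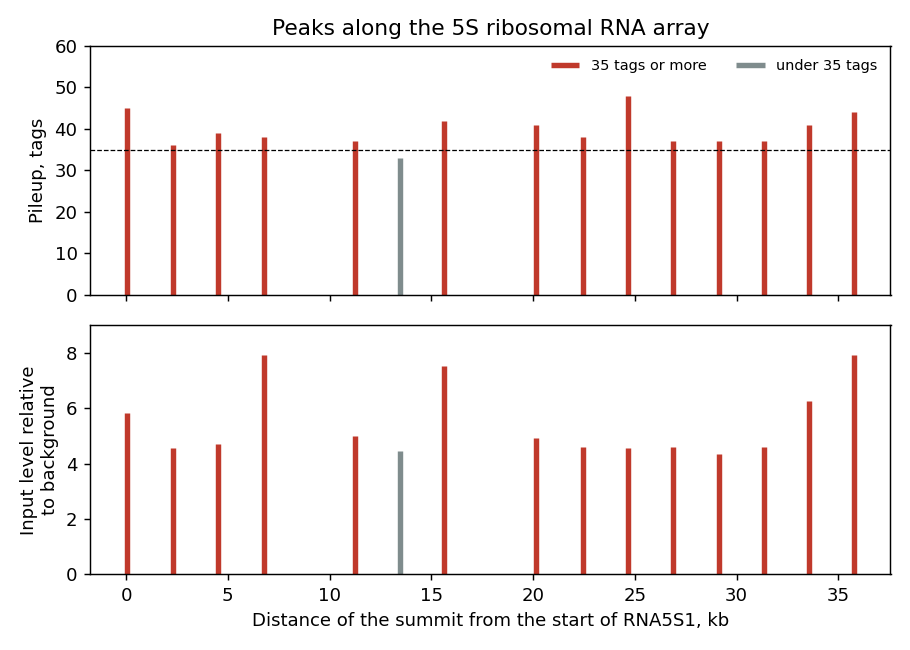
Pileup in tags (upper panel) and input level relative to the genome-wide background (lower panel) of the 15 peaks along the 5S ribosomal RNA array, against the distance of the summit from the start of RNA5S1 in kb. The 14 tall peaks (red) stand 36 to 48 tags high at the spacing of the genes, and the input level is at least 4.33 at each of them.

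The nearest protein-coding gene of all 14 was RHOU, which encodes a small GTPase, so that RHOU led the genes nearest to tall peaks through this array alone. Within 1 kb of a small RNA gene (ribosomal, transfer, small nuclear, small nucleolar and like genes) lay 21 tall peaks, or 3.21% (2.11 to 4.85%), against 1.39% of the shorter ones, a difference of 1.82 points (95% Newcombe interval 0.695 to 3.47). Without the array the shares were 1.09% and 1.38%, a difference of -0.290 points (-0.892 to 0.870), so no excess was left outside it. Of the other 7, 3 lay in the transfer RNA genes TRE-CTC1-2, TRE-CTC1-3 and TRE-CTC1-4 on chromosome 1, with 40, 46 and 42 tags over 5.84 to 7.93 times background. One lay 14 bp from RNU1-1, a U1 spliceosomal RNA gene, with 49 tags over 5.01 times background, and one 122 bp from LOC124904138, a small nuclear RNA gene, with 45 tags over the same level. Of the 7, only RNU6-1 (64 tags) and SNORD3A, the U3 small nucleolar RNA gene (42 tags), stood at an input level equal to the background, with folds of 20.3 and 13.4. Of 655 tall peaks 3 had a transfer RNA gene as nearest small RNA gene within 1 kb, and of 12880 shorter ones 129.

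Chromosome 1 held 131 of the tall peaks, or 20.0% (17.1 to 23.2%), against 10.9% of the shorter ones, a difference of 9.15 points (6.21 to 12.4). Chromosome 8 held 53, or 8.09% against 4.83% (difference 3.26 points, 1.37 to 5.63), and chromosome 5 held 56, or 8.55% against 6.75% (1.79 points, -0.164 to 4.22). Chromosome 12 had 14, or 2.14% against 4.48% (-2.34 points, -3.28 to -0.883), chromosome 4 18, chromosome 15 14 and chromosome 16 10, with differences whose intervals also lay under 0, and chromosome X had 4, 0.611% against 1.70%. Neighbouring peaks are not independent, so all intervals of shares given here are too narrow, and 24 chromosomes were compared without adjustment. The median input level of the tall peaks was 1.67 times background on chromosomes 1 and 8 and 1.51 on chromosome 5, against 1.35, 1.29 and 1.33 for the shorter ones.

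**Figure D4:**
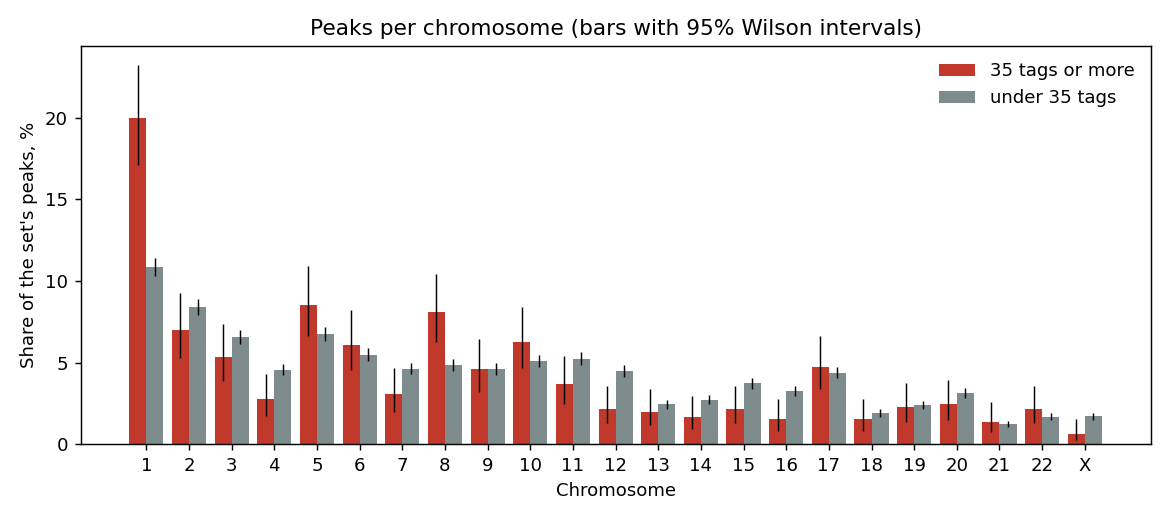
Share of tall peaks (red) and of peaks under 35 tags (grey) on each chromosome, in percent of each set, with 95% Wilson intervals. Chromosome 1 stands out at 20.0% against 10.9%, chromosome 8 has 8.09% against 4.83%, and chromosome Y, with 0 tall peaks and 1 shorter one, is left out.

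The long arms of these chromosomes were looked at in 3 stretches chosen with the heights known. From 140 Mb of chromosome 1, 120 Mb of chromosome 5 and 100 Mb of chromosome 8 onward there were 91, 45 and 36 tall peaks, together 26.3% of the set (23.0 to 29.8%) against 11.7% of the shorter peaks. The 91 include the 14 of the 5S array, without which the share was 24.6% (21.5 to 28.1%) against 11.7%. Median input levels of the tall peaks in the stretches were 1.76, 1.58 and 1.67 times background, and in the rest of the same chromosomes 1.25, 1 and 1.67. On chromosome 8 the 2 medians were thus the same, that of the rest coming from 17 tall peaks. For the shorter peaks the medians were 1.61, 1.56 and 1.61 in the stretches and 1.05, 1.02 and 1.05 in the rest. With the height divided by the relative input level these stretches held 20 of 279 peaks, 7.17% (4.69 to 10.8%), against 12.5% of the rest, a difference of -5.38 points (-7.92 to -1.69). The share of chromosome 1 alone went from 20.0% to 8.24%, under the 11.3% of the other peaks. The counting error of the input levels was not carried into these shares, and the part of the input level in these heights was not tested.

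Relative to the listed gene starts, tall summits lay at middle distances more often than shorter ones. On the chromosomes with listed gene starts, 57.0% of 602 tall summits (53.0 to 60.9%) were 10 to 100 kb from the nearest listed start of a protein-coding gene. The share was 48.6% of 12258 shorter ones, a difference of 8.42 points (4.34 to 12.4). Over 100 kb away lay 23.3% against 31.0% (-7.79 points, -11.1 to -4.16). Within 1 kb lay 26 tall summits, 4.32% against 6.05% (-1.73 points, -3.15 to 0.251), a difference within its counting error. Among peaks with an input level under 2 times background the share at 10 to 100 kb was 55.9% against 48.3% (7.59 points, 3.03 to 12.1). Gene starts on chromosome 8 were not used here.

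**Figure D5:**
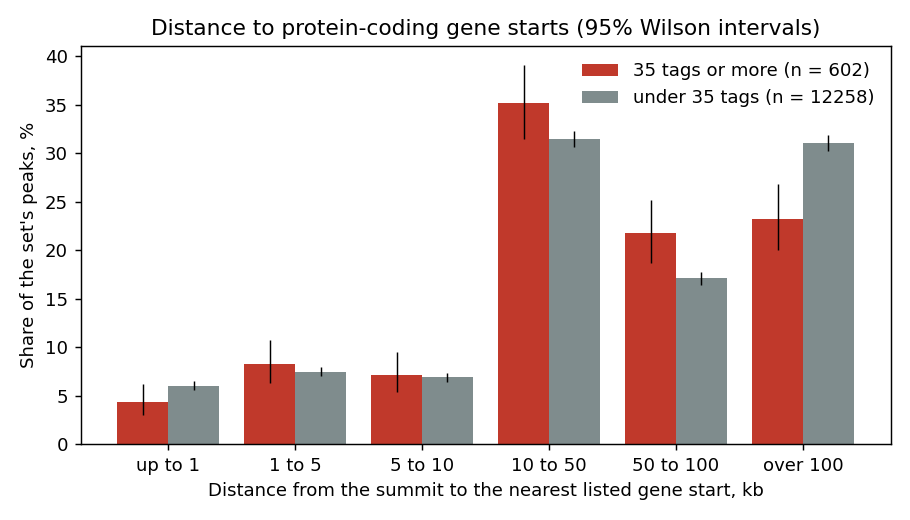
Share of summits (y axis, percent of each set) by distance to the nearest listed start of a protein-coding gene (x axis, kb), for 602 tall peaks (red) and 12258 peaks under 35 tags (grey) outside chromosome 8, with 95% Wilson intervals. Tall summits are more frequent at 50 to 100 kb (21.8% against 17.1%) and less frequent over 100 kb (23.3% against 31.0%).

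Summits inside a protein-coding gene made up 44.9% of the tall peaks (41.1 to 48.7%) and 47.5% of the shorter ones (-2.61 points, -6.48 to 1.31). Near an end of such a gene, at most 1 kb off, were 38 tall summits, 5.80% against 7.42% (-1.62 points, -3.24 to 0.487). Neither difference exceeded its counting error. With genes of every type the end share was 18.2% against 14.1%, a difference of 4.08 points (1.25 to 7.27) that became 2.30 (-0.429 to 5.42) without the RNA5S array.

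Tall peaks had close company more often than shorter ones. Another peak of any height lay within 50 kb of 69.6% of the tall summits (66.0 to 73.0%) and of 62.5% of the shorter ones (7.11 points, 3.39 to 10.6). Within 10 kb the shares were 39.5% and 33.1%. Among each other tall peaks were mostly apart: 554 had no other tall peak within 50 kb, and 101 formed 29 pairs and 10 longer runs, the 5S array being the longest with 14.

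Some of the runs lay within single genes. NFIA, a transcription factor of the nuclear factor I family, held 3 tall peaks of 43, 52 and 37 tags over 63.8 kb at input levels of 1 to 1.14 times background. TIFAB and its surroundings had 3 (66, 44 and 39 tags), and 16.9 kb separated the peak of CFAP99 from one of 35 tags in ZFYVE28. On chromosome 5, ECSCR (36 and 40 tags), STING1 (61) and the stretch 14.2 kb from UBE2D2 (50) formed a run of 4 over 58.1 kb. ERGIC1, a protein of transport between endoplasmic reticulum and Golgi, held 3 of 40 to 44 tags over 51.8 kb. COL4A2, a chain of basement membrane collagen, held 2 peaks of 51 tags each, 0.425 kb apart. A run of 4 peaks (35 to 44 tags) beside the REXO1L pseudogenes of chromosome 8 had input levels of 3.76 to 10.0 times background, and those genes are also repeated copies.

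In all, 575 protein-coding genes were nearest to a tall peak, 519 of them to 1, 44 to 2 and 12 to 3 or more. After RHOU came ASAP1, a GTPase-activating protein for ARF proteins on chromosome 8, with 4 of 35 to 51 tags and input levels of 1.48 to 3.34. RORA, a nuclear receptor, held 2 tall peaks of 50 and 39 tags at the background input. VEGFA, the vascular growth factor, was nearest to 2 at 101 and 138 kb, of 42 and 55 tags, and SOX2, a stem cell transcription factor, to 2 of 37 tags at 185 and 187 kb. Such distances do not show that the gene is the one served.

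Of 20050 protein-coding genes, 958 (4.78%) had a tall peak in them or at most 50 kb away. Of 37 genes of cell adhesion and the cytoskeleton 8 had one (21.6%), of 33 genes of growth factor signalling and early response 5 (15.2%), of 37 epithelial and related transcription factors 4 (10.8%), and of 13 highly active RNA polymerase III and housekeeping genes 2 (15.4%). LHX2, DLG1, RNU6-1 and EEF1A1 were listed with their peaks known. Without them the counts were 7 of 36 (19.4%), 5 of 33, 3 of 36 (8.33%) and 0 of 11. The remaining genes were also listed with earlier results of these data known, so these shares are a description only. The lists were not matched to other genes in length. Several genes of the RNA polymerase III and housekeeping list, such as RNU6-1, are not protein-coding. The share over protein-coding genes is therefore of another gene type than that list. The median gene was 73.6 kb long in the adhesion list, 13.8 kb in the signalling list and 24.1 kb over all protein-coding genes. Longer genes offer more room for a peak, and this was not tested. A peak of any height lay within 50 kb of 32 of 37 adhesion, 26 of 33 signalling and 28 of 37 transcription factor genes. It did so for 10 of the 13 RNA polymerase III and housekeeping genes, and for 52% of all protein-coding genes. With 5 kb in place of 50 kb, 1.77% of all protein-coding genes had a tall peak, against 4 adhesion, 4 signalling and 3 transcription factor genes.

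Among the adhesion genes, LAMA3, a chain of laminin 332 (36 tags, 11.6-fold), and PLEC, the hemidesmosome linker plectin (36 tags, 11.6-fold), held a tall peak at the background input. ITGA3, a laminin receptor chain, was 28.6 kb from one of 40 tags (28.6 to 54.5). VCL, vinculin, was 44.2 kb from one of 53 tags that lay nearer to PLAU, and PTK2, focal adhesion kinase, was 39.7 kb and 41.3 kb from 2 of 49 and 40 tags on chromosome 8. CAPN2, a calpain protease, was 38.4 kb from one of 43 tags that lay inside CAPN8. Of the peaks named for this list, those of DLG1 and VCL reached 50 tags.

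Among the signalling genes, HBEGF, a ligand of the EGF receptor, held a peak of 41 tags (29.4 to 55.6) at 1.67 times background. DUSP1, a phosphatase that ends MAP kinase signalling, was 1.40 kb from one of 37 tags at the same input level. EPHA2, an ephrin receptor, was 1.23 kb from one of 39 tags and CCN1, a matricellular protein, 23.4 kb from one of 38. SMAD3, a transducer of TGF-beta, held one of 35 tags. All of these lay between 35 and 41 tags, near the lower edge of the set.

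Of the transcription factors, TFAP2A, a regulator of epithelial and mammary genes, held a peak of 54 tags (40.6 to 70.5, 14.6-fold) at chr6:10418872-10419230, 0.545 kb past its nearest listed start. TEAD1, the DNA-binding partner of YAP, held one of 35 tags, and HES1, a target of Notch signalling, was 1.64 kb from one of 35. The other 33 listed factors had no tall peak within 50 kb, and 28 of the 37 had a peak of some height there. Of all protein-coding genes, 10434 of 20050 had one.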

How the data were processed

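The authors immunoprecipitated chromatin with a RUNX1 antibody and called peaks with MACS 2.1.2 from 1 ChIP and 1 input library at a q-value limit of 0.05. The submitters' processing notes name Bowtie2 and hg38, without a version. Per the file headers, tags of 54 bp were extended to 74 bp and duplicates were removed down to 1 tag for each position and strand, which limits a pileup to 148. This left 89.8% of tags in the ChIP and 92.3% in the input library. The deposited pileup is a signal, the deposited fold enrichment a ratio, ChIP over local background with 1 added to each, the deposited −log10 q-values are those of MACS, and the deposited width is in bp. All describe single peaks of 1 ChIP library.

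The input level was computed as (pileup + 1) / fold − 1 and divided by the genome-wide background of 2.20 tags. Genes, gene starts and sequences came from RefSeq tables (GRCh38.p14), all 120 listed symbols matching. Distances were taken from summits.  Shares have 95% Wilson intervals and differences of shares 95% Newcombe intervals (statsmodels 0.14.6), pileups exact 95% Poisson intervals (scipy 1.17.1), all covering counting error only. Position functions were tested on simulated data. The members, lists and comparisons were chosen with earlier results of these data known. Genes named are those of the 30 tallest peaks, genes nearest to at least 2 tall peaks, listed genes with a tall peak within 50 kb and those at the height limit. From genes nearest to 2 tall peaks, a few were picked after their values were seen, as were the other small RNA genes and promoters. The planned search for the RUNX core around every summit needs a genome sequence and was not run. Promoter windows, gene-start distances, small RNA genes and chromosome shares were added after seeing the data. One listed gene with a tall peak is counted but not reported here by name.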

Additional observations from a re-analysis of the deposited data

How the results depend on the processing

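Of 81 alternatives over 10 results, 8 of 70 differences from the shorter peaks changed sign, and 53 left the value within the counting interval of the main one, or a count within 1.5 times. The number of tall peaks went from 655 to 1284 at 30 tags, 349 at 40 tags, 279 with the height divided by the relative input level and 398 with a fold of at least 10, by construction. The median width went from 311 bp to 293.5, 334, 332 and 324 bp under the same 4 settings. The share of chromosome 1 was 8.24% with the divided height, 15.6% with input levels under 2 times background and 13.8% with a fold of at least 10. The share by small RNA genes was 2.02% at 30 tags, 0.717% with the divided height, 0.389% with input under 2 times background, 0.503% with a fold of at least 10 and 1.09% without the 5S array. It was then under that of the shorter peaks in all of these but the first. The gene-end share was 7.89% with the divided height, against 7.31% in the other peaks, which turned the difference. It was 18.2% with genes of every type and 18.6% within 5 kb. With genes of every type the share inside genes was 63.2% and the median distance to a gene went from 2338 bp to 0 bp. The shorter peaks had a median of 470 bp to a protein-coding gene, and it also became 0 bp with genes of every type. Another peak within 50 kb was found for 65.9% with the divided height and 65.4% after merging peaks within 1 kb, and for 39.5% within 10 kb and 83.7% within 100 kb. Protein-coding genes with a tall peak were 1.77% within 5 kb, and 8.47% and 2.53% at 30 and 40 tags. Beyond wider windows and other limits, the cause was not tested. The share 10 to 100 kb from a listed gene start stayed within its interval under every alternative run. The search for the core around every summit with a 100-base window was not run. No paired analysis was possible because the ChIP and the input were sequenced once each.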

Other observations

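Of 28 tall peaks with an input level of at least 5 times background, 6 lay at genes of the 5S array and 3 in the TRE-CTC1 transfer RNA genes. Others lay beside REXO1L4P and REXO1L5P on chromosome 8, beside MIR3648-2 (62 tags, 9.60 times background) on chromosome 21 and in DANT1 (39 tags, 5.84 times), a non-coding RNA gene at a macrosatellite of chromosome X. Their fold enrichments were 1.85 to 4.40 and their median width was 135 bp, against 324 bp for the 192 tall peaks at the background input. Their nearest protein-coding gene was a median of 25.7 kb away, and 419.5 bp in the latter.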
